A study of Homo sapiens with 6 samples.

Results

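The genes described here encode 3 families of splicing factors: the SR proteins (symbols SRSF and a number), the heterogeneous nuclear ribonucleoproteins or hnRNPs (symbols starting with HNRNP), and the subunits of the U2-associated complexes SF3a and SF3b (symbols starting with SF3A or SF3B). They were taken from the count table by symbol alone, leaving out processed copies named with P and a number and antisense genes. This gave 43 of the 27452 rows: 12 SRSF, 22 HNRNP and 9 SF3 genes. 42 of the 43 were among the 14999 genes with enough counts to be tested. SRSF12 was not, whose counts were 0, 0 and 0 with control shRNA and 1, 1 and 0 with STAT3 shRNA. The data are RNA-seq gene counts from 2 groups of 3 libraries, both labelled HepG2, an established line derived from a human liver tumour and grown in DMEM with fetal bovine serum. The control group carried a control shRNA (Ctrl shRNA) and the other group an shRNA against STAT3, a transcription factor activated downstream of interleukin-6 family receptors. Both groups are lines made with shRNA, and the labels give neither the hairpin sequences nor the number of clones.

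SR proteins bind exons through RNA recognition motifs, and their arginine- and serine-rich domains help to recruit the U1 and U2 particles to nearby splice sites. The hnRNPs coat newly made transcripts and often hold splice sites back, and several also act in RNA export, stability or translation. SF3a and SF3b are parts of the U2 particle, which recognises the branch point of the intron. Many SR protein and hnRNP genes also limit their own output by splicing in exons that send the transcript to nonsense-mediated decay, a layer that counts per gene do not resolve.

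Total counts ran from 17408543 to 25862027 per library, so that 3 counts corresponded to 0.113 to 0.175 CPM, which are counts scaled by library size with TMM normalization factors. STAT3 stood at 262, 247 and 246 CPM with control shRNA, against 34.8, 35.8 and 36.2 CPM with STAT3 shRNA, a log2 fold change of -2.82 ± 0.0845 (SE, n = 3 per group; edgeR adjusted p = 2.19e-07). The label HepG2 was checked against 18 hepatocyte genes, of which 9 had a row that was used and 2 had enough counts to be tested. The summed hepatocyte markers were 2.28 to 4.06 CPM in the control group and 6.05 to 8.94 CPM in the STAT3 shRNA group. HNF4A was the tested hepatocyte gene that rose, and 4 of 6 epithelial genes rose and 1 fell, with summed levels of 3746 to 4551 CPM against 5348 to 5882 CPM. Of the fibroblast markers, 1 of 3 tested fell (53.2 to 61.2 against 35.6 to 37.3 CPM), the 1 endothelial gene tested did not pass the test (summed 1.21 to 1.76 against 1.28 to 1.75 CPM), and the 1 leukocyte gene tested rose (10.7 to 15.8 against 20.7 to 28.0 CPM). The part of these shifts in the results below was not tested. ALB, the albumin gene, APOA1, APOA2, FGG and HP had at most 3 counts in any library, AHSG at most 11 and TF at most 41, while HNF4A had up to 34 counts with control shRNA and up to 192 with STAT3 shRNA. Values of the other hepatocyte genes are not given here, and the cells are called by their label only. In bulk RNA a change in the number of cells of a kind and a change in RNA per cell cannot be told apart. The labels do not say whether the 3 libraries of a group came from separate cultures, so the p-values rest on a spread between libraries that may be technical.

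Few genes of the 3 families differed between the groups. In edgeR's quasi-likelihood test, 1 member rose (SF3B6) and 1 fell (HNRNPA3) at an adjusted p under 0.05, which is 4.76% of the 42 tested. Over all 14999 genes 17.5% were called, 9.39% higher and 8.13% lower, and among the 2254 genes with a mean above 100 CPM the share was 18.2%. The median absolute log2 fold change was 0.09 over the members, against 0.24 over all genes and 0.17 over the genes above 100 CPM. For 37 of the 42 members the 95% interval of the fold change lay within 1.5-fold in either direction (88.1%, against 48.3% of all genes and 75.5% of those above 100 CPM), and for 41 it lay within 2-fold. The remaining member was SF3B5, and the 5 whose intervals passed 1.5-fold were SRSF9, HNRNPA3, HNRNPA1L2, SF3B1 and SF3B5, named after their values were seen. The members were abundant, which narrows these intervals: 36 of 42 had a mean above 100 CPM, compared with 15% of all genes tested.

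**Figure D1:**
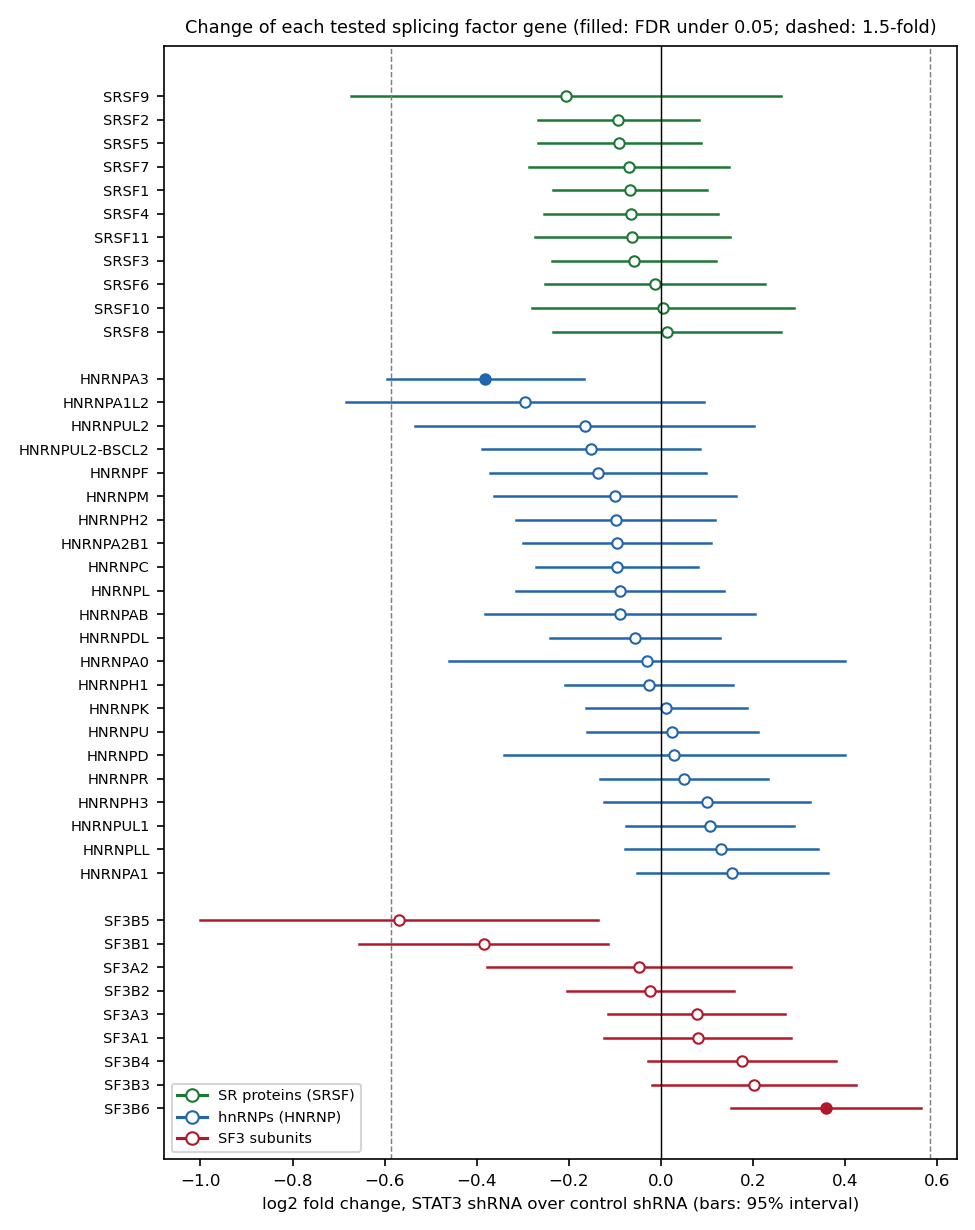
Log2 fold change (STAT3 shRNA over control shRNA, horizontal axis) of each of the 42 tested genes, sorted within the SRSF, HNRNP and SF3 families, with 95% intervals from the edgeR fit over 3 libraries per group. Filled points mark the 2 genes with an adjusted p under 0.05, HNRNPA3 at -0.38 and SF3B6 at 0.36, and dashed lines mark a 1.5-fold change in either direction.

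Without regard to a test, 15 members had a log2 fold change above zero and 27 below, with a median of -0.06 and a range from -0.57 to 0.36. The median was -0.01 over all genes and -0.09 over the genes above 100 CPM. This split turns with the scaling: on library totals, which move the median of all genes to 0.09, 34 members stood above zero and 8 below with a median of 0.04, and with upper-quartile scaling 20 stood above and 22 below. The 3 libraries of each group did not overlap for 11 members, 4 higher and 7 lower in the STAT3 shRNA group, or 26.2% against 35.7% of all genes (18.5% higher and 17.2% lower). As a share of all counts, the 43 genes together took 1.45% ± 0.0527 (SD, n = 3) in the control group and 1.51% ± 0.0479 in the STAT3 shRNA group.

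**Figure D2:**
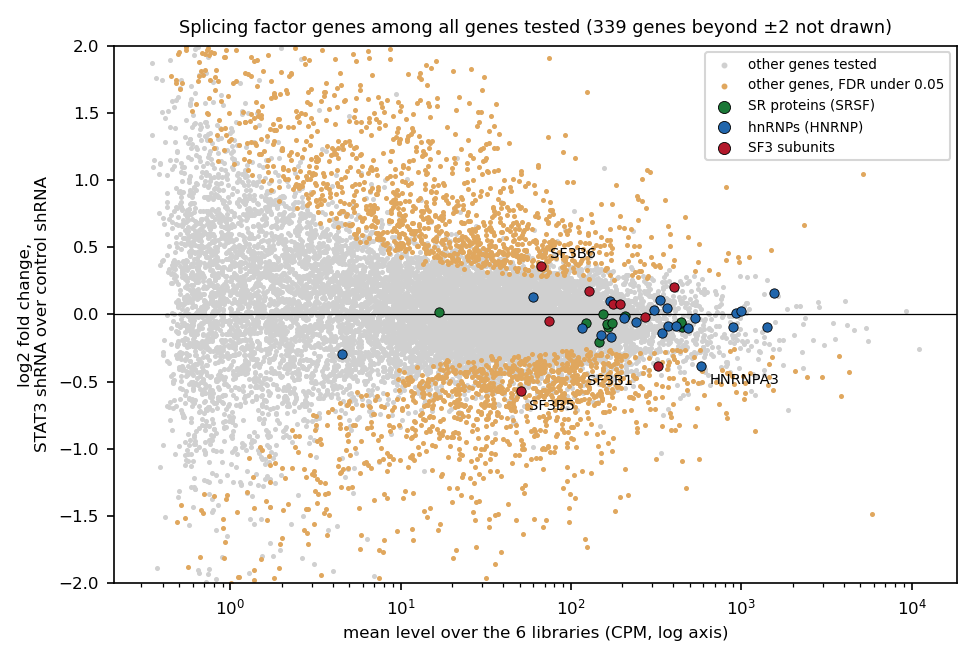
Log2 fold change (STAT3 shRNA over control shRNA, vertical axis) against mean expression in CPM on a log axis for the genes tested, with the members drawn over the rest in colour by family. The members lie towards the high-expression end, 36 of 42 above 100 CPM, between -0.57 and 0.36 on the log2 scale, and the 2 called genes HNRNPA3 and SF3B6 stand on opposite sides of zero.

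None of the 11 tested SR protein genes passed edgeR's test, 0 had an unadjusted p under 0.05, and DESeq2 called 0. Their log2 fold changes ran from -0.21 to 0.01 with a median of -0.06, and 10 of 11 had a 95% interval within 1.5-fold. Per kilobase of the longest annotated transcript, the highest levels in the control group belonged to SRSF2, a general activator of exon inclusion, at 161 ± 3.08 CPM per kb (SD, n = 3), and to SRSF1, the founding SR protein, at 145 ± 1.47. SRSF3, the smallest of the classical SR proteins, followed at 107 ± 1.98. These 3 did not overlap in mean ± SD, whereas SRSF9 at 92.2 ± 23.5 overlapped SRSF3. SRSF7 (58.7) overlapped SRSF5 (55.6), and SRSF6, SRSF11 and SRSF10 (48.4, 44.6 and 38.8 CPM per kb) overlapped in turn. SRSF4 at 15.4 and SRSF8 at 4.16 CPM per kb closed the order.

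SRSF2 was at 476, 461 and 460 CPM with control shRNA, against 431, 423 and 457 CPM with STAT3 shRNA. The groups did not overlap, though the nearest libraries stood at 460 and 457 CPM, and the log2 fold change of -0.09 ± 0.0770 (SE) had an edgeR adjusted p of 0.458. SRSF1 was at 458, 450 and 450 CPM against 422, 437 and 437 CPM, again without overlap. Its log2 fold change of -0.07 ± 0.0740 had an edgeR adjusted p of 0.576, with a 95% interval from -0.23 to 0.10. Both directions depend on the scaling: on library totals SRSF2 stood at 0.0048 and SRSF1 at 0.03. SRSF5, another classical SR protein, was the most even gene of the family within the control group, at 168, 169 and 171 CPM, against 157, 154 and 167 CPM. SRSF9 was the least even, at 112, 171 and 188 CPM with control shRNA, against 117, 166 and 125 CPM with STAT3 shRNA, and its interval from -0.67 to 0.26 includes changes beyond 1.5-fold. SRSF10, an SR-like protein that represses splicing when dephosphorylated, had almost the same mean in both groups, 153 ± 26.3 and 154 ± 9.79 CPM (log2 fold change 0.01 ± 0.126).

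Among the 22 hnRNP genes, HNRNPA3 fell and 0 rose. HNRNPA3 belongs to the A/B group of hnRNPs, which carry paired RNA recognition motifs and a glycine-rich tail. It was at 589, 683 and 693 CPM with control shRNA, against 494, 540 and 475 CPM with STAT3 shRNA. Every STAT3 shRNA library was below every control library, and the mean went from 655 ± 57.2 (SD, n = 3) to 503 ± 33.5 CPM. The log2 fold change was -0.38 ± 0.0952 (SE) with an edgeR adjusted p of 0.0240. It stayed below zero in all 12 alternative analyses, from -0.44 to -0.28, and the call was lost in 4 of them: on library totals (adjusted p = 0.0610) and without control library 2, STAT3 shRNA library 1 or STAT3 shRNA library 3 (adjusted p up to 0.121), where 5 libraries remained. Of the 50-base stretches of its longest transcript, 17.5% also occur in transcripts of other genes, so a part of its counts depends on how reads shared with processed copies were assigned.

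None of the other A/B genes passed the test. HNRNPA1, which represses many splice sites and shuttles between nucleus and cytoplasm, had the highest level of all members, 356 ± 30.7 CPM per kb in the control group. Its CPM were 1320, 1537 and 1541 with control shRNA, against 1610, 1728 and 1562 with STAT3 shRNA. All 3 STAT3 shRNA libraries were above all 3 controls, though the nearest libraries stood at 1541 and 1562 CPM, and the log2 fold change of 0.16 ± 0.0921 had an edgeR adjusted p of 0.285. HNRNPA2B1, its close relative, was at 1320, 1526 and 1529 CPM against 1361, 1435 and 1300 CPM, and the groups overlapped (log2 fold change -0.09 ± 0.0905, adjusted p = 0.516). HNRNPAB stood at -0.09 ± 0.130 and HNRNPA0 at -0.03 ± 0.189, the latter with a 95% interval from -0.46 to 0.40. HNRNPA1L2, a copy of HNRNPA1 without introns, had a mean of 5.00 CPM against 4.08 CPM (log2 fold change -0.29 ± 0.172, adjusted p = 0.281).

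HNRNPK, a protein that binds runs of C in RNA and DNA, came next after HNRNPA1 per kilobase, at 315 ± 12.4 CPM per kb in the control group, which overlaps HNRNPA1 at mean ± SD. It was at 945, 953 and 886 CPM with control shRNA, against 956, 949 and 903 CPM with STAT3 shRNA. The values interleaved, and the log2 fold change was 0.01 ± 0.0778 with a 95% interval from -0.16 to 0.19 and an edgeR adjusted p of 0.934. HNRNPC, which binds runs of U and keeps them from other splicing factors, was at 897, 906 and 977 CPM against 884, 869 and 850 CPM. Its groups did not overlap, and the log2 fold change of -0.09 ± 0.0780 had an adjusted p of 0.450. HNRNPU, which ties RNA to chromatin, had means of 987 ± 68.5 and 1005 ± 17.3 CPM. Per kilobase, HNRNPAB, HNRNPA2B1, HNRNPC and HNRNPM formed the next group in the control libraries (237, 232, 206 and 197 CPM per kb), and each overlapped its neighbour at mean ± SD.

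None of the proteins that bind runs of G passed the test. HNRNPH1 had a log2 fold change of -0.03 ± 0.0805, HNRNPH2 of -0.10 ± 0.0961, HNRNPH3 of 0.10 ± 0.0991 and HNRNPF of -0.14 ± 0.104. HNRNPL and HNRNPLL, which bind CA repeats, stood at -0.09 ± 0.0998 and 0.13 ± 0.0928. HNRNPD, known as AUF1 for its role in the decay of AU-rich messages, had means of 304 ± 64.3 and 311 ± 47.2 CPM, and its interval from -0.34 to 0.40 was among the wider ones. Of the HNRNP genes 20 of 22 had a 95% interval within 1.5-fold, and 1, HNRNPA3, had an unadjusted p under 0.05.

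Of the 9 SF3 subunit genes, SF3B6 rose and 0 fell, and 3 had an unadjusted p under 0.05 (SF3B6, SF3B1 and SF3B5), a share close to that of all genes (4709 of 14999). SF3B6, also called p14, is the small subunit that sits at the branch point and binds SF3B1. It was at 56.1, 59.5 and 60.6 CPM with control shRNA, against 79.6, 69.5 and 76.9 CPM with STAT3 shRNA. Every STAT3 shRNA library was above every control, with means of 58.7 ± 2.34 and 75.3 ± 5.22 CPM (SD, n = 3). The log2 fold change was 0.36 ± 0.0914 (SE) with an edgeR adjusted p of 0.0255. It stayed above zero in all 12 alternatives, from 0.32 to 0.46, and lost its call in 4 of them, of which 3 left out control library 2, STAT3 shRNA library 1 or STAT3 shRNA library 3 (adjusted p up to 0.138).

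SF3B1, the large scaffold of SF3b that closes around the branch point and is recurrently mutated in blood cancers, did not pass the test. Its values were 426, 350 and 319 CPM with control shRNA, against 292, 253 and 295 CPM with STAT3 shRNA. The groups did not overlap, and the log2 fold change of -0.38 ± 0.120 was as large as that of HNRNPA3, with an edgeR adjusted p of 0.0563. SF3B1 passed the threshold in 3 of 12 alternatives, which were DESeq2, no filter on low counts, and the fit without control library 3, and its adjusted p ran from 0.0164 to 0.155. SF3B5, a small stabilizing subunit, was at 46.3, 61.4 and 74.3 CPM against 32.7, 49.0 and 41.4 CPM. The groups overlapped, the control libraries alone differed by 0.68 on the log2 scale, and the log2 fold change of -0.57 ± 0.191 had an adjusted p of 0.0737. It was called lower in 4 of 12 alternatives, among them DESeq2 and the fits that left out control library 1 or STAT3 shRNA library 2, and its adjusted p ran from 0.0162 to 0.250.

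The other SF3b subunits were SF3B3, a large beta-propeller protein, at 377 ± 41.8 and 434 ± 17.1 CPM (log2 fold change 0.20 ± 0.0983, adjusted p = 0.194), and SF3B4, an RNA-binding subunit that contacts the intron upstream of the branch point, at 120 ± 6.94 and 135 ± 8.89 CPM (0.18 ± 0.0903, adjusted p = 0.219). Neither pair of groups overlapped. Without control library 1, SF3B3 was called higher. SF3B2, the partner of SF3B4, stayed at 275 ± 9.34 and 271 ± 12.8 CPM. The SF3a subunits SF3A1, SF3A2 and SF3A3 had log2 fold changes of 0.08 ± 0.0899, -0.05 ± 0.147 and 0.08 ± 0.0849. In the control group the levels per kilobase ran from 87.6 ± 20.2 for SF3B5 and 76.3 ± 3.05 for SF3B6 to 36.5 ± 2.63 CPM per kb for SF3A1, and SF3B3, SF3A2 and SF3A1 overlapped.

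**Figure D3:**
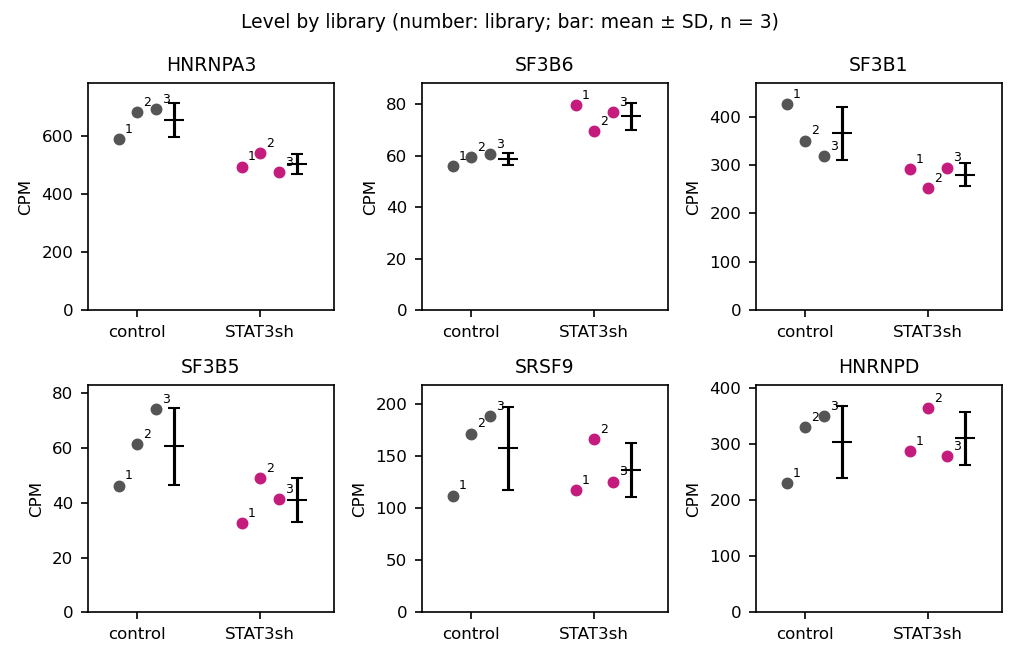
CPM in each of the 6 libraries, on a separate vertical axis per gene, from 0, for HNRNPA3, SF3B6, SF3B1, SF3B5, SRSF9 and HNRNPD, with points numbered by library and bars for the mean ± SD (n = 3). HNRNPA3, SF3B6 and SF3B1 separate by group, SF3B1 without passing the test, while the groups overlap for SF3B5, SRSF9 and HNRNPD, whose control libraries spread from 231 to 351 CPM in HNRNPD.

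The called members shared a chromosome. By GENCODE 29, HNRNPA3, SF3B6 and SF3B1 all lie on chromosome 2, with SF3B6 on the short arm and HNRNPA3 and SF3B1 on the long arm. Of the 5 members on chromosome 2, 1 rose and 1 fell. Of the 37 on other chromosomes, edgeR called 0, 1 (SF3B5) had an unadjusted p under 0.05, and DESeq2 called 1. Over all genes matched to the annotation, 37.0% of 927 on chromosome 2 were called, 100 higher and 243 lower, against 16.4% of 13446 elsewhere.

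The values of these 3 genes resembled those of the genes beside them. Among the 40 tested genes nearest to HNRNPA3, 20 on each side, the median log2 fold change was -0.51, and 21 were called lower and 0 higher. Around SF3B1 the median was -0.49, with 20 called lower and 1 higher. The neighbours of HNRNPA3 and SF3B1 lie along the same stretch of the long arm. Around SF3B6 the median was 0.35, with 16 called higher and 0 lower. Over 13436 genes with a full set of neighbours, such medians ran from -0.19 to 0.16 between the 5th and 95th percentiles. Of these medians, 1.91% were at or below that of HNRNPA3, 2.20% at or below that of SF3B1, and 0.394% at or above that of SF3B6. Windows of nearby genes overlap, so these shares count the same stretches repeatedly, those that hold the 3 genes included. For the other 39 members the medians ran from -0.15 to 0.22. SRSF7 and HNRNPLL, further along the short arm than SF3B6, had neighbour medians of -0.08 and -0.07, and their own log2 fold changes were -0.07 ± 0.0964 and 0.13 ± 0.0928. SF3B5 on chromosome 6 had a neighbour median of -0.01. The part of chromosomal position in these values was not tested.

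**Figure D4:**
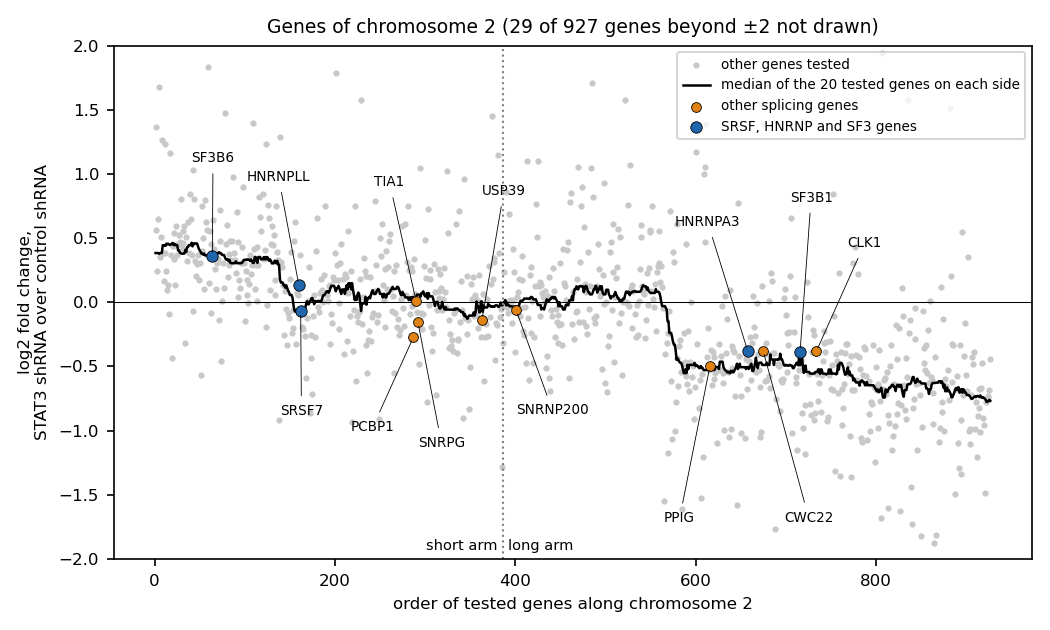
Log2 fold change (STAT3 shRNA over control shRNA, vertical axis) of tested genes on chromosome 2 in their order along it (horizontal axis), with a running median of the 20 tested genes on each side and splicing genes named. The running median lies above zero around SF3B6, near zero across most of the middle, and below zero from PPIG onwards through HNRNPA3 and SF3B1.

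Other splicing genes on that stretch of the long arm stood below zero too. PPIG, a nuclear cyclophilin with an SR-like tail, fell from 45.8 ± 3.56 to 32.4 ± 2.86 CPM (log2 fold change -0.50 ± 0.108, edgeR adjusted p = 0.0128). CLK1, a kinase that phosphorylates SR proteins in the nucleus, fell from 40.8 ± 2.93 to 31.3 ± 3.56 CPM (-0.38 ± 0.115, adjusted p = 0.0489), but it was called in 4 of the 12 alternatives only. CWC22, which loads the exon junction complex, stood at -0.38 ± 0.121 (adjusted p = 0.0630) and was chosen after its values were seen.

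The 250 bases before the annotated start are shown for the 3 members on the shifted stretches of chromosome 2 and for HNRNPR. HNRNPR was the member with the strictest match to a STAT site. Where a gene had several starts, the one farthest upstream was used. Sequences are from RefSeq, GRCh38.p14, each 5′ to 3′ on the gene's strand, with the STAT motif in capitals where it occurs. The windows are not all purely upstream: by GENCODE 29, those of HNRNPA3, SF3B6 and HNRNPR overlap an exon of the gene itself. The HNRNPA3 window also overlaps exons of AC079305.3 and MIR4444-1, and that of SF3B6 an exon of FAM228B. The SF3B1 window overlaps none. The motif TTCNNNGAA reads the same on both strands, and TTCCNGGAA is a subset of it.
HNRNPA3, chr2:177212544-177212793, plus strand: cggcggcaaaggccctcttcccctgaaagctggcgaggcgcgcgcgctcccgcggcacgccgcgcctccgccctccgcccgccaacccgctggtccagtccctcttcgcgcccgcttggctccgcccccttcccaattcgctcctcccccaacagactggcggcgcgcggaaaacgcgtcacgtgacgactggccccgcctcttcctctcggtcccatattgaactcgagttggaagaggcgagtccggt
SF3B6, chr2:24076327-24076576, minus strand: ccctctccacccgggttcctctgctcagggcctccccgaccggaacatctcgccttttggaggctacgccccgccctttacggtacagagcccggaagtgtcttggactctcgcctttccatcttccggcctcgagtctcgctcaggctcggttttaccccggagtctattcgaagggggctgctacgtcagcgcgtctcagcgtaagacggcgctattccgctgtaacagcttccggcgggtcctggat
SF3B1, chr2:197435094-197435343, minus strand: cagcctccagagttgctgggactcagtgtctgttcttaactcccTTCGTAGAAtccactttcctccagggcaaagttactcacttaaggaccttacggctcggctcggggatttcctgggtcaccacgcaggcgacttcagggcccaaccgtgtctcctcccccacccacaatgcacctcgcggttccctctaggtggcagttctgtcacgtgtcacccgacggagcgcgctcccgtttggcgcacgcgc
HNRNPR, chr1:23344285-23344534, minus strand: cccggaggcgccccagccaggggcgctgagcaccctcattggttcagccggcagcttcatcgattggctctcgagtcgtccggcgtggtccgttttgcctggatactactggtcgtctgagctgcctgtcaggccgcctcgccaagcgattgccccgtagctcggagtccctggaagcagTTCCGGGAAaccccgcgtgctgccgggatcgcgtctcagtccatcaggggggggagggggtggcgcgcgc

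TTCNNNGAA occurred in 6.57% of 35116 RefSeq windows of this length and TTCCNGGAA in 0.968%. Counted per gene, where a gene may have several starts, the shares were 8.09% and 1.21% of 27305 genes. Of the 40 member genes matched to the table, 3 (HNRNPH1, HNRNPR and SF3B1) held the looser motif and 1 (HNRNPR) held the stricter one. The 2 called members, HNRNPA3 and SF3B6, held neither in this window. HNRNPR was at 360 ± 21.3 CPM in the control group and 373 ± 7.60 CPM in the STAT3 shRNA group (log2 fold change 0.05 ± 0.0809, adjusted p = 0.705), and HNRNPH1 was at 537 ± 26.5 and 528 ± 20.4 CPM. A match of letters is not a bound site, and binding was not measured.

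Within the groups, many members followed the libraries in a recurrent order, though the same counts were not made over all genes. Control library 1 had the lowest CPM of its group in 26 of the 42 members and control library 3 the highest in 22. In the STAT3 shRNA group, library 2 was the highest in 22 and library 3 the lowest in 18. Library 1 of that group was the lowest in 13 and the highest in 13. The control libraries spanned more than 0.5 on the log2 scale in 5 members: SRSF9 (0.75), SF3B5 (0.68), HNRNPD (0.60), HNRNPA0 (0.53) and SF3A2 (0.52). HNRNPD was at 231, 331 and 351 CPM there. Other members ran the other way: control library 1 was the highest in 10 and control library 3 the lowest in 12. SRSF10, SF3B1, SRSF6, SRSF8, SRSF11 and SF3B3 were among them, with SRSF10 at 180, 154 and 127 CPM in control libraries 1, 2 and 3. In the control group SRSF5, SRSF1, SRSF2 and SRSF3 were the steadiest, with spans of 0.02 to 0.05.

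The same libraries deviated over the rest of the transcriptome. Across 14373 annotated genes, a library's deviation from its group mean went with the GC content of the transcript at a Spearman rho of -0.588, 0.0619 and 0.585 in control libraries 1, 2 and 3, and of -0.269, 0.504 and -0.419 in STAT3 shRNA libraries 1, 2 and 3. Over the 42 members the values in that order were -0.247, 0.0756 and 0.267, and 0.0732, 0.195 and -0.366. The sign was the same in 5 of the 6 libraries and opposite in STAT3 shRNA library 1. These are correlations across genes within a library, and genes are not independent replicates. The part of GC content in the members' fold changes was not tested.

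**Figure D5:**
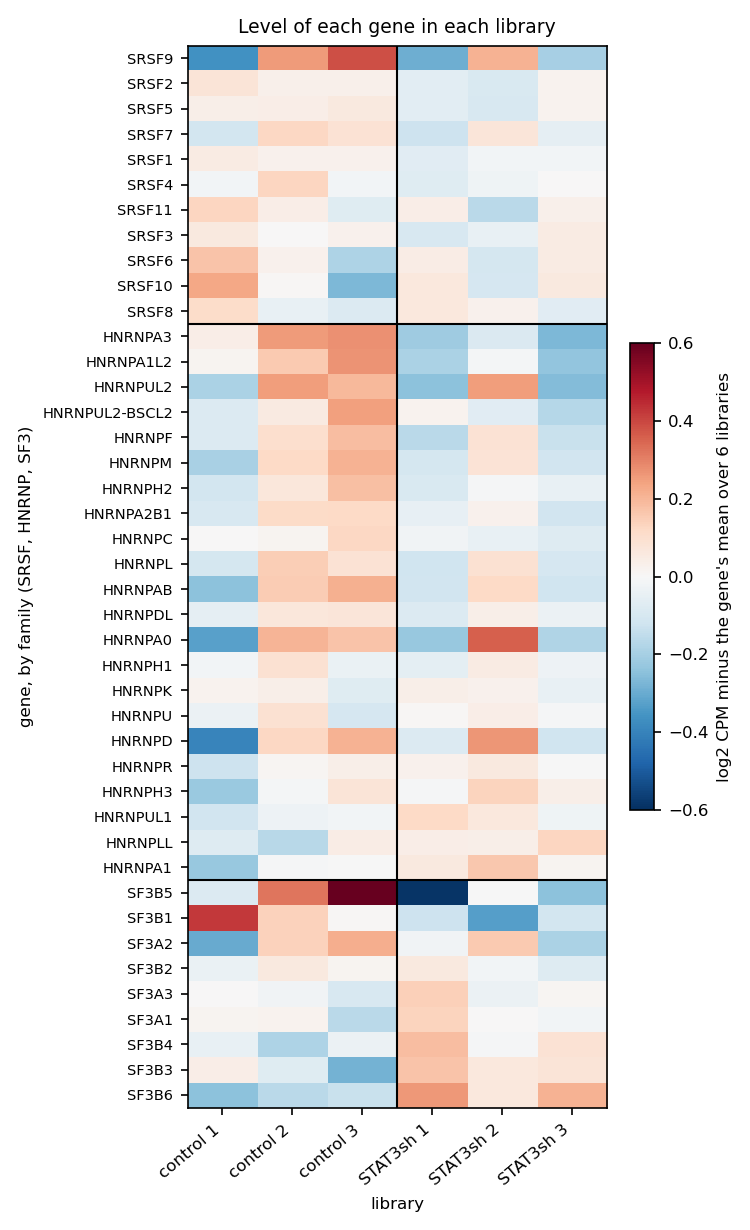
Log2 CPM of each tested member (rows, by family) in each of the 6 libraries (columns), as the difference from the gene's mean over all 6, in colours that end at 0.6 in either direction. Control library 1 is often the lowest and control library 3 often the highest of its group (26 and 22 of 42 members). The reverse also occurs: control library 1 is the highest in 10 members, SRSF10 and SF3B1 among them.

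Sequence shared with other genes limits some of these counts. Taking all 50-base stretches of each member's longest GENCODE 29 transcript, 11 of the 43 members shared more than 10% with transcripts of other genes and 3 shared more than 50%, with a median of 0.515%. HNRNPUL2-BSCL2, a read-through transcript annotated across HNRNPUL2 and BSCL2, shared 98.8%, and SRSF1 and HNRNPA1L2 shared 58.5% each. HNRNPUL2 shared 45.2% and HNRNPA1 28.8%, whereas SF3B6 shared 0.139% and SF3B1 0.957%.

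The values of HNRNPUL2-BSCL2, HNRNPA1, HNRNPA1L2, HNRNPUL2 and SRSF1 are uncertain to that extent. The sources used here do not give the strand setting of the counting, so reads of a member and of an antisense gene overlapping it cannot be told apart either. Transcripts marked for nonsense-mediated decay are annotated for 28 of the 42 tested members (66.7%), including 11 of 11 SRSF, 14 of 22 HNRNP and 3 of 9 SF3 genes, against 43.6% of 12319 tested protein-coding genes. The table holds 1 count per gene, so the balance between productive and decay-bound transcripts was not measured.

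The rest of the splicing machinery, followed in 10 lists of 176 genes, also held few called genes. Of the 171 genes tested, 1 rose and 4 fell (2.92%, against 17.5% of all genes), 28 had an unadjusted p under 0.05 (4709 of 14999 over all genes), and the median log2 fold change was -0.07. Leaving out control library 1 gave 8 higher and 23 lower, beside 2068 higher and 2030 lower over all genes. The SR-related proteins had 0 higher and 1 lower of 25, which was PPIG. Among 11 SR kinases and import factors, CLK1 fell and SRPK2, a kinase that readies SR proteins for nuclear import, rose. SRPK2 was at 59.6, 51.7 and 53.0 CPM with control shRNA, against 76.7, 73.5 and 77.4 CPM with STAT3 shRNA, without overlap. Its log2 fold change was 0.47 ± 0.0915 with an edgeR adjusted p of 0.0074, and it was called in 11 of 12 alternatives; the exception was the fit without control library 2.

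Of the 22 tri-snRNP genes 2 fell. SNU13, which binds the kink-turn of U4 RNA, went from 215 ± 14.3 to 174 ± 5.30 CPM (log2 fold change -0.31 ± 0.0845, edgeR adjusted p = 0.0343). PRPF4, a protein of the U4/U6 particle, went from 97.6 ± 2.63 to 80.7 ± 2.99 CPM (-0.27 ± 0.0805, adjusted p = 0.0461). Each was called in 3 of 12 alternatives. Neither gene is on chromosome 2. Of the 162 tested list genes outside chromosome 2, 1 rose and 2 fell, or 1.85%, against 16.4% of all genes there.

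In the remaining 7 lists edgeR called 0 genes. The U2 and 3′ splice site factors (16 tested, median log2 fold change -0.13) had 3 with an unadjusted p under 0.05, and their most abundant gene, the branch-point binder SF1, stood at -0.14 ± 0.0821. The U1 factors (9 tested) had 1 such gene, with SNRNP70 at -0.20 ± 0.176, and the Sm core (7 tested) had 0, with SNRPB at -0.33 ± 0.192 and overlapping groups. Both genes rested on single control libraries: without control library 1 SNRPB stood at -0.50 (adjusted p = 0.0286) and SNRNP70 at -0.36, and without control library 3 at -0.10 and -0.04. The PRP19 complex and catalytic-step factors (21 tested) had 5, with PRPF19, the ubiquitin ligase at its centre, at 0.15. The minor spliceosome (8 tested) had 1, with ZCRB1 at 0.25, and the other RNA-binding regulators (37 tested) had 6, with PCBP2, a poly-C binding protein, at 0.18. The genes of nonsense-mediated decay and the exon junction complex (15 tested) had 1, with the helicase UPF1 at -0.21 ± 0.100. DESeq2 called 2 lower among the other RNA-binding regulators and 0 in the other 6 lists.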

How the data were processed

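RNA-seq had been run on 6 libraries of total RNA, 3 with a control shRNA and 3 with a STAT3 shRNA. The values are raw read counts per gene as deposited in 1 table by the authors. The aligner, counter, genome build, annotation, library kit and strand setting were not given in the sources used here. Columns were matched to libraries by name.

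Counts were tested with edgeR 4.0.16 (R 4.3.3): TMM scaling, filterByExpr (count 10 or more, total 15 or more), and a robust quasi-likelihood F test of group, two-sided, over all 27452 rows, of which 14999 passed. Benjamini-Hochberg adjustment covered all genes tested, with a threshold of 0.05. CPM are not corrected for length. Levels between genes use CPM per kb of the longest GENCODE 29 transcript, which approximates the isoform in use. GENCODE 29 held 25996 of 26420 Ensembl IDs and all 43 members. Promoters came from RefSeq GRCh38.p14. The expected protein table was not used here.

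The 12 alternatives were scaling by DESeq2 size factors, by upper quartile or by library totals, the DESeq2 1.42.0 test, no filter on low counts, a replicate block, and leaving out each of the 6 libraries in turn. The test was tried on simulated data first. Genes named were STAT3, called members, the 2 members of each family with the highest CPM per kb, and up to 3 called genes of each list or, with 0 called, its most abundant gene; other members are given with their values as examples. The members and lists were chosen with earlier results of these data known. Some items are not reported here.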

Additional observations from a re-analysis of the deposited data

How the results depend on the processing

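Over 21 named genes and 12 alternatives there were 252 values: 201 kept their direction and side of the threshold, 37 kept the direction and lost the call, 10 gained a call, and 4 turned sign. The 4 were SRSF2 (0.0048) and SRSF1 (0.029) on library totals, and HNRNPK without control library 3 (-0.014) or STAT3 shRNA library 1 (-0.0024), within a range of -0.014 to 0.038 over the fits that left out 1 library. Among the members, 1 was higher and 1 lower in the test as reported. On library totals 0 were lower, without a filter on low counts 2 were lower (SF3B1 added), and DESeq2 called 3 lower (SF3B1 and SF3B5 added). Leaving out 1 library gave 0 to 2 members higher and 0 to 2 lower, beside 796 to 2068 genes higher and 666 to 2030 lower over the whole table, the most without control library 1. In the splicing lists, 2 genes were higher and 1 lower with upper-quartile scaling, 5 higher and 1 lower on library totals, and 7 lower with DESeq2. Leaving out 1 library gave 1 to 8 list genes higher and 0 to 23 lower. The causes were not tested, and a fit that leaves out a library also has fewer samples.

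Replicate numbers did not pair the libraries: deviations of libraries with the same number correlated at 0.279, 0.191 and -0.227 across genes. With the replicate block 0 members were higher (SF3B6 had an edgeR adjusted p of 0.0559) and 2 lower (HNRNPA3 and SF3B5), and the lists had 2 genes higher and 1 lower. The depth sets the limits for SRSF12 and for HNRNPA1L2 with its mean of 4.54 CPM, while the spread between libraries sets them for SRSF9, HNRNPA0, HNRNPD and SF3B5.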

Other observations

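The 63 rows left out as numbered copies of members had 9 with enough counts to be tested, and 1 was called. HNRNPA1P33 fell from a mean of 7.30 to 4.57 CPM (log2 fold change -0.67 ± 0.177, edgeR adjusted p = 0.0297). HNRNPA1P7, the most abundant copy, gave 1328, 1444 and 791 counts with control shRNA, against 1048, 1427 and 944 with STAT3 shRNA. Its groups overlapped, with means of 65.4 and 53.6 CPM, and HNRNPA1P48 had means of 19.9 and 21.7 CPM. HNRNPCP1 gave 3, 77 and 42 counts with control shRNA, against 10, 72 and 21 with STAT3 shRNA, so that library 1 was the lowest in both groups, while HNRNPC itself ran from 850 to 977 CPM.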
